A study of Mus musculus with 6 samples.

Results

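The sarcomere scaffold genes are 37 genes for the proteins that hold the contractile filaments of skeletal muscle in register or help to assemble them, chosen by gene symbol from the 18864 genes of a mouse RNA sequencing table. They cover titin, nebulin, the Z-disc, the M-band, the myosin-binding proteins and assembly factors, and leave out the actins, myosins, troponins and tropomyosins themselves. The genes were picked by name, but with earlier results of these data already known. All 37 symbols were found, and all 37 had a mean normalized count of at least 10, the minimum for testing. The libraries came from C57Bl/6 mice (written C56Bl/6 in 1 label), 8 weeks old by 1 label and 6 weeks by the growth protocol, with no genetic change. Satellite cells, which are skeletal muscle's resident stem cells, were taken from gastrocnemius muscle, grown on 4% matrigel and moved to differentiation medium, described with 4% horse serum in 1 place and 10% fetal calf serum in another. In 3 libraries the cells were cultured for 24 h with 0.25% BAPN (beta-aminopropionitrile, which blocks lysyl oxidases, the enzymes that cross-link collagen and elastin), and 3 control libraries had none. The comparison asks what blocking this cross-linking during early differentiation does to the transcripts of the cells. Each replicate is called independent in the series description, and the p-values below measure the spread between these libraries. The cells were enriched by letting fibroblasts stick to plastic and were not sorted, so that cells other than myogenic ones may remain. Library totals ran from 17125602 to 18617656 counts with BAPN and from 18335559 to 18682099 in controls.

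A sarcomere is the repeating contractile unit of a muscle fibre. At its ends lies the Z-disc, where alpha-actinin cross-links the thin actin filaments, and in its middle the M-band, where myomesins cross-link the thick myosin filaments. Titin spans from one to the other, nebulin runs along the thin filament, and chaperones fold the myosin heads while the structure is built. Differentiating myoblasts switch these genes on together as they form myotubes, largely under MyoD family factors and MEF2 factors, so their transcripts are commonly read as a measure of how far a culture has matured.

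Transcript levels of all 37 genes were lower with BAPN than in the control of the same replicate number, in each of the 3 replicates, against 37.7% of all genes tested. In edgeR's quasi-likelihood test across 13716 genes, 31 of the 37 fell at a Benjamini-Hochberg adjusted p under 0.05 (called, below) and 0 rose. Over all genes tested, 20.8% were called lower and 15.6% higher, a balance that depends on the scaling, since TMM scaling gave 17.4% and 17.9% and 30 members lower. Of the 31, 15 fell at least 2-fold, a size reached by 2.95% of all genes tested. The log2 fold changes, BAPN over control, ran from -2.42 for Ankrd2 to -0.35 for Klhl40, with a median of -0.89 over the 37 genes and -0.03 over all genes tested. On this scale 21 members lay among the lowest 5% of all genes tested, 32 among the lowest 10% and all 37 among the lowest 20%. The 37 genes together took 1.15%, 1.19% and 1.37% of all counts in BAPN replicates 1 to 3, and 1.78%, 1.79% and 2.25% in control replicates 1 to 3. No BAPN library reached the share of any control library. In RNA from whole cultures, fewer muscle cells and less RNA per muscle cell cannot be told apart.

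**Figure D1:**
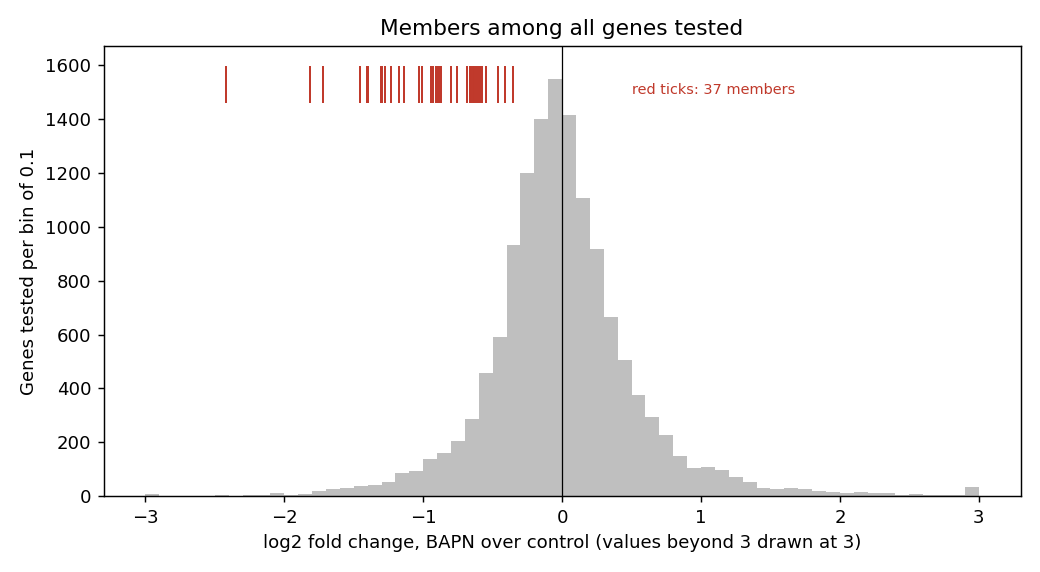
Histogram of the log2 fold change, BAPN over control, of the 13716 genes tested (vertical axis, genes per bin), with a red tick for each of the 37 members. All ticks lie to the left of 0, between -2.42 and -0.35.

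For 32 of the 37 every BAPN library was below every control, against 28.5% of all genes tested. The 5 that overlapped were Tmod4, Myoz1, Myot, Mybpc1 and Mybpc2. These and Klhl40 were the 6 that were not called, of which Mybpc1 and Klhl40 had an unadjusted edgeR p of 0.034 and 0.042. With the replicate number as a block, 36 were called lower and 0 higher, Tmod4 being the exception, against 27.0% and 20.3% of all genes. With replicates 1 and 2 of each group summed into 1 library, which leaves 2 against 2, 18 were called lower and 0 higher, against 5.90% and 5.22% of all genes. The 13 that lost their call there (edgeR adjusted p from 0.051 to 0.15) were Ttn, Neb, Tmod1, Actn2, Myoz2, Pdlim3, Pdlim5, Des, Smpx, Xirp2, Cmya5, Myom2 and Ankrd23. The authors' deposited table lists 33 of the 37 as lower and 0 as higher at its adjusted p under 0.05, against 15.8% and 11.8% of the 18444 genes for which it gives one. The members not called there are Myoz1, Myot, Tmod4 and Mybpc2, as the authors' deposited table gives them.

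**Figure D2:**
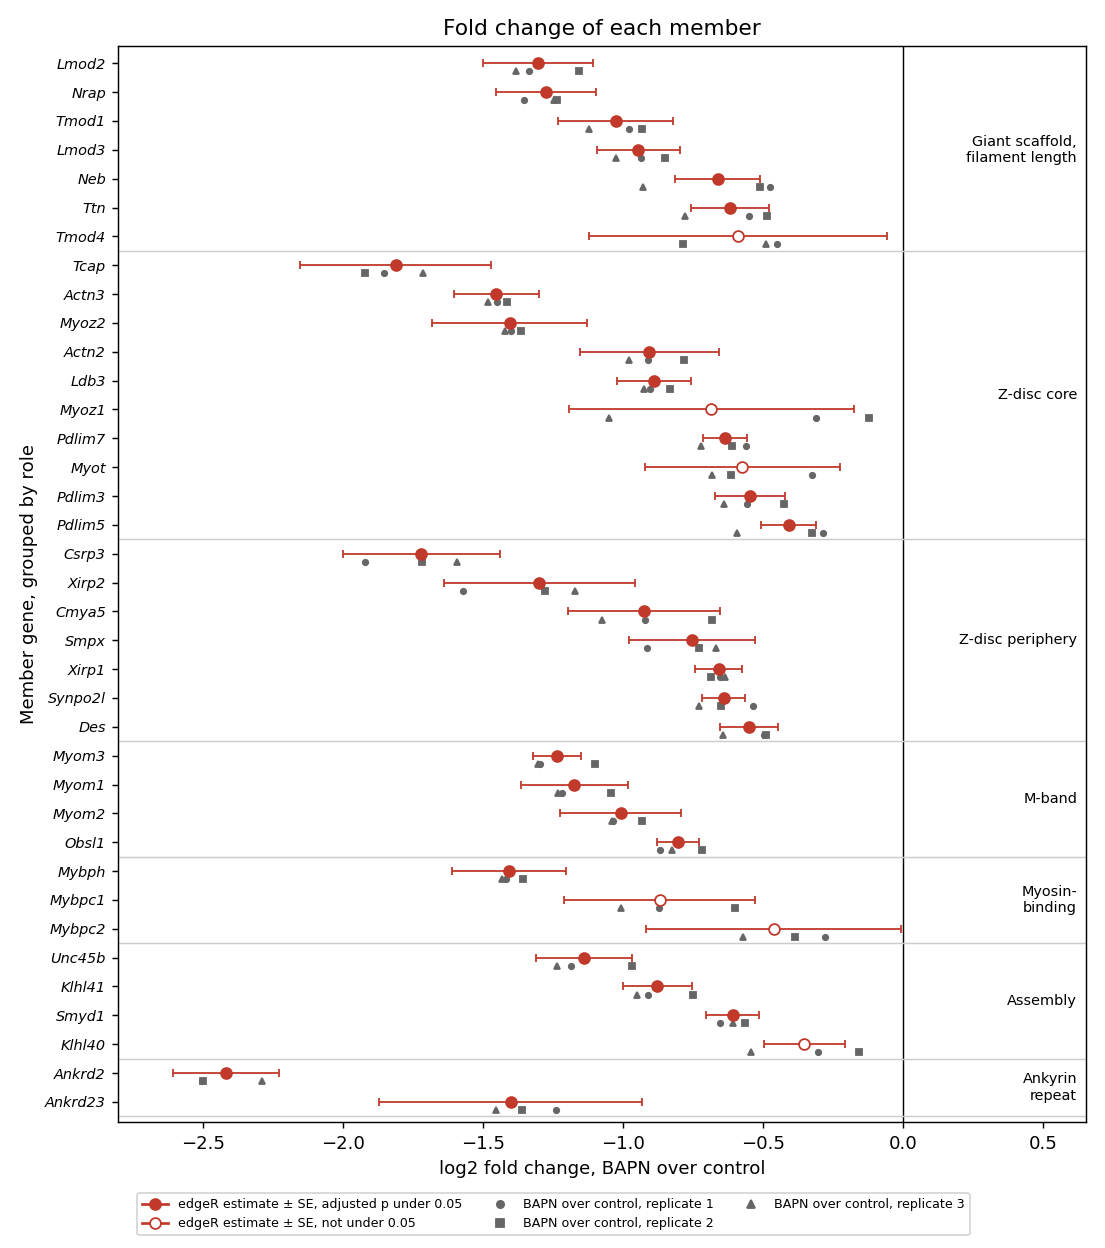
Log2 fold change, BAPN over control, of each member (horizontal axis), grouped by role, as the edgeR estimate with its SE. Filled circles mark the 31 genes with an adjusted p under 0.05 and open circles the other 6, and small grey marks give the difference within each replicate number, all of them below 0.

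The sequences ahead of these genes were read because MyoD family factors bind E-boxes and MEF2 factors bind an AT-rich site. RefSeq windows in GRCm38.p6, from 250 bases before to 50 after a start, were at hand for 29 of the 37 genes, 34 windows in all. The MEF2 consensus, searched on both strands, stood in 5 of the 34 windows (14.7%) and in 0.557% of 32851 windows of all genes. The sites of 4 of these genes are given with 10 bases on either side, 5′ to 3′ on the strand of the gene, with the site in capitals. They start 63 bases before the start in Klhl41 (chr2:69670047-69670076, plus strand), 109 in Synpo2l (chr14:20668444-20668473, minus), 166 in Ttn (chr2:76982694-76982723, minus) and 74 in Xirp2 (chr2:67445918-67445947, plus).
Klhl41: gagccggtgtCTATATTTAGccggtgggat
Synpo2l: gaaatttgtaCTATAATTAGttctaggagt
Ttn: ttctgaaaggCTAAATTTAGcactgccaat
Xirp2: agctcagttcCTAAAAATAGgtgctaggtt
These 4 sites differ in their central bases. The general E-box, CANNTG, was about as common in the members' windows as elsewhere, in 26 of 34 (76.5%) against 72.3% of all windows. The form CAGCTG, which is one of the CANNTG forms, stood in 11 (32.4%) against 16.3%. MCAT, CATTCC, the site of TEAD factors, stood in 7 (20.6%) against 14.7%, and TATAAA in 4 (11.8%) against 13.6%. The CArG box, the site of serum response factor, stood in 3 (8.82%) against 1.63%. Those 3 windows belong to only 2 genes, Ldb3 and Myom1, and the windows of Ldb3 overlap, so 1 box may be counted more than once. Both strands were searched for each motif. A match describes the letters of these windows and not a bound site.

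The windows of Ankrd2, the gene with the largest change, and Mybph, the most abundant member per kilobase after desmin, are given whole as chr19:42035777-42036076 and chr1:134193198-134193497, both on the plus strand, with E-boxes in capitals.
Ankrd2: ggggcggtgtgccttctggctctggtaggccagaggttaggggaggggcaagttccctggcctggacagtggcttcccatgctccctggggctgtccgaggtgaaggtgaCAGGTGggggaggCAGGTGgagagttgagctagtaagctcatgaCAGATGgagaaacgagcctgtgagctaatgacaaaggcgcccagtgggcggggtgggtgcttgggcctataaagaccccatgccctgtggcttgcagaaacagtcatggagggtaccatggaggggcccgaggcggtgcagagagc
Mybph: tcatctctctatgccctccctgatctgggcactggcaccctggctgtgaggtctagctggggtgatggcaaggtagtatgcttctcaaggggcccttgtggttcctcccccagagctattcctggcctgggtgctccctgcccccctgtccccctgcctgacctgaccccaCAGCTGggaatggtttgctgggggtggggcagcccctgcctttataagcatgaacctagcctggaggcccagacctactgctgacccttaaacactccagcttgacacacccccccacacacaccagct
Ankrd2 has 3 E-boxes, at -140, -127 and -96 from the start. Mybph has 1, at -79, and the bases that follow it directly, ggaatg, are MCAT on the other strand.

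Titin and nebulin, the giant proteins that set filament spacing and thin filament length, fell, with smaller log2 fold changes than most other members. Ttn (chromosome 2, 76703980 to 76982547 in GRCm38) had normalized counts of 25335, 26998.5 and 30246 in BAPN replicates 1 to 3 and 37097, 37827 and 51871 in control replicates 1 to 3. The groups did not overlap, and control replicate 3 stood above the rest (log2 fold change -0.62, SE 0.14, edgeR adjusted p = 0.011). Neb (chromosome 2, 52136647 to 52378474) had 13869, 14288 and 15385 with BAPN and 19286, 20364 and 29254 in controls, again with control replicate 3 the highest and no overlap (-0.66, SE 0.15, edgeR adjusted p = 0.012). Nrap, a nebulin-related protein of early myofibril assembly, fell more, from 10204 ± 1975 in controls to 4218 ± 919.6 with BAPN (SD, n = 3 each), with -1.27 on the log2 scale at an edgeR adjusted p of 0.0017.

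The leiomodins nucleate actin filaments and lengthen them at the pointed end, which the tropomodulins cap. Lmod2 (chromosome 6, 24597762 to 24605414) had normalized counts of 937, 1059 and 1375 with BAPN and 2367, 2364 and 3586 in controls, and Lmod3 (chromosome 6, 97238534 to 97252759) had 4061, 4125 and 5157 with BAPN and 7766, 7434 and 10486.5 in controls. Both groups of libraries were separate for each gene, and both genes fell, with log2 fold changes of -1.30 for Lmod2 and -0.94 for Lmod3 (adjusted p = 0.0022 and 0.0027 in edgeR). The count of Lmod2 over that of Lmod3 within a library, a ratio that the scaling between libraries cannot move, was 0.231, 0.257 and 0.267 with BAPN and 0.305, 0.318 and 0.342 in controls. It was lower in every BAPN library than in any control, by 1.28-fold. Tmod1, the main capping protein, fell from 2919.6 ± 808 to 1433 ± 292 (-1.03, edgeR adjusted p = 0.0068). Tmod4, the skeletal tropomodulin, was the least abundant member per kilobase of exon, with 9.40, 8.40 and 24.9 with BAPN and 13.2, 15.2 and 35.4 in controls. These groups overlapped, replicate 3 being the highest in both (-0.59, SE 0.53, edgeR adjusted p = 0.42).

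In the Z-disc core, 8 of 10 genes fell, both alpha-actinins among them. Actn2 (chromosome 13, 12269426 to 12340760), the alpha-actinin of all striated muscle, had normalized counts of 8915, 9166.5 and 13970.2 with BAPN and 16779, 15768 and 27525 in controls. Actn3 (chromosome 19, 4861216 to 4877909), the form of fast fibres, had 5694, 5878 and 7507 with BAPN and 15543.5, 15683 and 20959.7 in controls. Neither gene's groups overlapped, but BAPN replicate 3 came close to the lower controls for Actn2 and stayed far from them for Actn3. The log2 fold changes were -0.91 (SE 0.25, edgeR adjusted p = 0.024) and -1.45 (SE 0.15, edgeR adjusted p = 5.1e-04). Controls had about as many counts for each, with an Actn2 to Actn3 ratio of 1.08, 1.00 and 1.31, while BAPN libraries had ratios of 1.57, 1.56 and 1.86. The ratio was thus 1.47-fold higher with BAPN and higher in every BAPN library than in any control. Per kilobase of exon, the mean normalized counts went from 5276.5 for Actn2 and 5996 for Actn3 in controls to 2815 and 2192 with BAPN. The call for Actn2 was lost without BAPN replicate 1 or BAPN replicate 2 (edgeR adjusted p = 0.081 and 0.084).

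Tcap, telethonin, which caps the ends of titin at the Z-disc, had the largest fall in the Z-disc. Its normalized counts (chromosome 11, 98383811 to 98384953) came to 179, 166 and 354 with BAPN, against 649, 630.1 and 1166 in controls. Replicate 3 was well above the other libraries in both groups, and the groups stayed apart (-1.81, SE 0.34, edgeR adjusted p = 0.0053, 3.51-fold lower). Myozenins tie calcineurin to alpha-actinin. Myoz2 (chromosome 3, 123006206 to 123035015), the form of slow and cardiac muscle, had 447, 413 and 721 with BAPN and 1181, 1063 and 1934 in controls, without overlap (-1.40, SE 0.28, edgeR adjusted p = 0.0063). Myoz1 (chromosome 14, 20649107 to 20656540), the form of fast fibres, was far lower, at 59.0, 55.9 and 108 with BAPN and 73.4, 61.0 and 224 in controls. Its groups overlapped, and most of the gap between the means came from control replicate 3 (-0.69, SE 0.51, edgeR adjusted p = 0.33). Without control replicate 3 the estimate for Myoz1 was 0.13, and with the replicate block it was -0.59 and called (edgeR adjusted p = 0.031).

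Myotilin, encoded by Myot (chromosome 18, 44334074 to 44355724) and a partner of alpha-actinin and filamin, was also at a low level. It had 59.9, 47.5 and 93.3 with BAPN and 75.4, 73.2 and 150.3 in controls, where BAPN replicate 3 lay above the lower 2 controls (-0.57, SE 0.35, edgeR adjusted p = 0.23, and 0.013 with the replicate block). Ldb3, also called ZASP or Cypher, is a PDZ and LIM protein that binds alpha-actinin. It fell from 14763 ± 2296 to 7964 ± 1056 (-0.89, edgeR adjusted p = 0.0021). The 3 related PDZ and LIM genes had smaller changes. Pdlim3 fell from 13729.6 ± 2179 to 9400 ± 1022 (-0.55, edgeR adjusted p = 0.012).

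Pdlim5 (chromosome 3, 142239590 to 142395696) had the smallest fall of any called member, with 2429.6, 2537 and 2547 with BAPN and 2963, 3177 and 3842 in controls (-0.41, SE 0.10, edgeR adjusted p = 0.013). Its groups did not overlap, and the call was lost without BAPN replicate 1 (edgeR adjusted p = 0.05001, just above the threshold). Pdlim7 (chromosome 13, 55495795 to 55513676), known as enigma, had 4059, 3952 and 4273 with BAPN and 5992, 6042 and 7048 in controls, close values within each group (-0.64, SE 0.08, edgeR adjusted p = 0.0011). The Pdlim5 to Pdlim7 ratio was 0.599, 0.642 and 0.596 with BAPN and 0.494, 0.526 and 0.545 in controls, higher in every BAPN library by 1.17-fold.

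All 7 genes of the Z-disc periphery and the links to the membrane fell. Desmin, the intermediate filament that ties Z-discs to each other, was the most abundant member per kilobase of exon in both groups and had the smallest change here. Des (chromosome 1, 75360329 to 75368579) had 40817, 42469.5 and 46058 with BAPN and 57566, 59703 and 72006 in controls, separate groups in which control replicate 3 was the highest (-0.55, SE 0.10, edgeR adjusted p = 0.0054). Csrp3 (chromosome 7, 48830398 to 48848033), muscle LIM protein, a sensor of stretch at the Z-disc, had the largest change, with 332.5, 371 and 651 with BAPN and 1262, 1223 and 1964 in controls. Every BAPN library was far below the lowest control (-1.72, SE 0.28, edgeR adjusted p = 0.0030, 3.29-fold lower). Synpo2l, an actin-binding Z-disc protein, and Xirp1, an actin-binding repeat protein of cell junctions and growing myofibrils, fell from 27809.5 ± 2087 to 17841 ± 606.5 and from 10369 ± 710.4 to 6567 ± 545 (-0.64 and -0.66, adjusted p = 9.4e-04 and 0.0011 in edgeR).

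Xirp2, the larger relative of Xirp1, had 715 ± 334 with BAPN against 1755 ± 611.5 in controls (-1.30, edgeR adjusted p = 0.020). Cmya5, myospryn, which binds desmin, had 678 ± 178 with BAPN against 1287 ± 489 in controls (-0.93, edgeR adjusted p = 0.030). Smpx, a small protein of costameres, had 1707 ± 516 with BAPN against 2880.2 ± 671 in controls (-0.76, edgeR adjusted p = 0.032). These 3 varied more between libraries than Synpo2l and Xirp1 did, and each lost its call when some libraries were left out. With any one of BAPN replicates 1 and 2 and control replicate 3 left out, the edgeR adjusted p was 0.058, 0.073 and 0.052 for Xirp2 and 0.0995, 0.096 and 0.054 for Cmya5. For Smpx it was 0.1002, 0.106 and 0.085 without the same libraries in turn and 0.055 without control replicate 1. The log2 fold change of Cmya5 was -0.57 without control replicate 3.

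In the M-band, all 4 genes fell, and Myom3 and Obsl1 were among the members with the smallest adjusted p. Myom3 (chromosome 4, 135759715 to 135815564), a myomesin of slow and intermediate fibres, had normalized counts of 4233, 4506 and 4739 with BAPN and 10384, 9656 and 11688 in controls. Replicates lay close together, and the groups were far apart (-1.24, SE 0.09, edgeR adjusted p = 1.4e-04). Obsl1 (chromosome 1, 75479310 to 75506452), a linker of titin and myomesin related to obscurin, had 6078, 6642 and 6877 with BAPN and 11081, 10915 and 12196 in controls, tight and separate groups (-0.80, SE 0.08, edgeR adjusted p = 3.7e-04).

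Myom1 (chromosome 17, 71002633 to 71126856), the myomesin of all striated muscle, had 2380, 2581 and 3436 with BAPN and 5535, 5323.5 and 8081 in controls (-1.17, SE 0.19, edgeR adjusted p = 0.0030). Myom2 (chromosome 8, 15057653 to 15133541), M-protein of fast fibres, had 6079.7, 6246 and 9174 with BAPN and 12469, 11932.5 and 18859.5 in controls (-1.01, SE 0.22, edgeR adjusted p = 0.0090). Neither overlapped, and replicate 3 was the highest in each group. The Myom1 to Myom2 ratio was 0.392, 0.413 and 0.375 with BAPN and 0.444, 0.446 and 0.428 in controls, a small shift of 1.12-fold that was downward in every BAPN library. The ratios of Myom1 and of Myom2 to Myom3 overlapped between the groups, with differences of 0.07 and 0.23 on the log2 scale.

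The myosin-binding proteins, which brace the thick filament and modulate its heads, split between a gene that fell and 2 that were not called. Mybph (chromosome 1, 134193448 to 134201232), myosin-binding protein H, had 6884, 6893 and 9983 with BAPN and 18412.5, 17652 and 26939.6 in controls. The lowest control was well above the highest BAPN library (-1.41, SE 0.20, edgeR adjusted p = 0.0019, 2.65-fold lower). Per kilobase of exon it was the second most abundant member in controls, at 9017, and the third with BAPN, at 3401.

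Mybpc1 (chromosome 10, 88518279 to 88605152), the slow form of myosin-binding protein C, had 1731, 1910.2 and 3203 with BAPN and 3169, 2897.5 and 6434 in controls. BAPN replicate 3 exceeded control replicates 1 and 2, so the groups overlapped (-0.87, SE 0.34, edgeR adjusted p = 0.080). It was called with the replicate block (edgeR adjusted p = 3.0e-05) and without BAPN replicate 3 (-1.19, edgeR adjusted p = 0.027). Mybpc2 (chromosome 7, 44501699 to 44524656), the fast form, was low, at 127, 92.2 and 236 with BAPN and 155, 121 and 351.5 in controls, with the same overlap (-0.46, SE 0.45, edgeR adjusted p = 0.46, and 0.011 with the replicate block). Without control replicate 3 the estimate for Mybpc2 was 0.13.

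Against Mybph, both C-type genes were relatively more abundant with BAPN. The Mybpc1 to Mybph ratio was 0.251, 0.277 and 0.321 with BAPN and 0.172, 0.164 and 0.239 in controls, 1.49-fold higher with no overlap. The Mybpc2 to Mybph ratio was 1.98-fold higher, also without overlap. Mybph lies 88756 bp from Myog, the gene of the differentiation factor myogenin, on chromosome 1 and the same strand. Myog had normalized counts of 24989 ± 2509 with BAPN and 62630 ± 2361 in controls (-1.33, SE 0.09, edgeR adjusted p = 1.4e-04). The closeness to Mybph (-1.41) is not particular to this neighbour. Lmod2 on chromosome 6 and Xirp2 on chromosome 2 had -1.30 each, closer still to Myog.

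Among the assembly factors, 3 of 4 genes fell. Unc45b (chromosome 11, 82910550 to 82943403), the chaperone that folds muscle myosin, had 3546, 3829.8 and 4784 with BAPN and 8060.1, 7489 and 11261 in controls, without overlap (-1.14, SE 0.17, edgeR adjusted p = 0.0022). Smyd1, a lysine methyltransferase that acts with it in myosin assembly, fell from 11253 ± 1034 to 7379 ± 678 (-0.61, edgeR adjusted p = 0.0024). The kelch proteins Klhl40 and Klhl41 stabilise thin filament proteins, nebulin among them, and mutations in either cause nemaline myopathy in people.

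Klhl41 (chromosome 2, 69670120 to 69684230) had 3833, 4027 and 4689.9 with BAPN and 7206, 6783 and 9061 in controls, well apart (-0.88, SE 0.12, edgeR adjusted p = 0.0017). Klhl40 (chromosome 9, 121777607 to 121783818) had 2326, 2607 and 2828 with BAPN and 2873, 2912 and 4125 in controls, where BAPN replicate 3 fell just short of the lowest control. It had the smallest change of all members (-0.35, SE 0.15, edgeR adjusted p = 0.094, and 0.0045 with the replicate block). The Klhl40 to Klhl41 ratio was 0.607, 0.647 and 0.603 with BAPN and 0.399, 0.429 and 0.455 in controls. Every BAPN library was above every control, by 1.45-fold on average.

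Ankrd2 and Ankrd23 belong to the muscle ankyrin repeat proteins, which bind titin's elastic part and move to the nucleus under stretch or damage. Ankrd1, a relative outside the 37 genes, was far more abundant than either and changed much less. It averaged 26470 normalized counts without the inhibitor and 22146 with it. The log2 fold change of Ankrd1 was -0.26, called lower by edgeR (adjusted p = 0.029). Ankrd2 (chromosome 19, 42036000 to 42045110) had the largest change of all members, with 375, 345.5 and 548 with BAPN and 2127, 1956 and 2682 in controls. The highest BAPN library was far below the lowest control (-2.42, SE 0.19, edgeR adjusted p = 2.1e-04, 5.34-fold lower). It went from rank 12 of the 37 by mean normalized count per kilobase of exon in controls (1982) to rank 23 with BAPN (371.5).

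Ankrd23 (chromosome 1, 36530188 to 36536883) was lower throughout, at 58.1, 56.8 and 134 with BAPN and 139, 147 and 368 in controls. BAPN replicate 3 came close to control replicate 1 without crossing it (-1.40, SE 0.47, edgeR adjusted p = 0.049). That call was lost under TMM scaling, upper quartile scaling and DESeq2 (adjusted p = 0.056, 0.053 and 0.076) and without any one of BAPN replicates 1 and 2 and control replicates 1 and 3 (0.14, 0.15, 0.051 and 0.13), the log2 fold change being -0.80 in the last. With the replicate block the edgeR adjusted p for Ankrd23 was 2.3e-05. The Ankrd2 to Ankrd23 ratio was 6.45, 6.08 and 4.10 with BAPN and 15.3, 13.3 and 7.29 in controls. The ratio was 2.10-fold lower with BAPN, and the groups did not overlap.

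**Figure D3:**
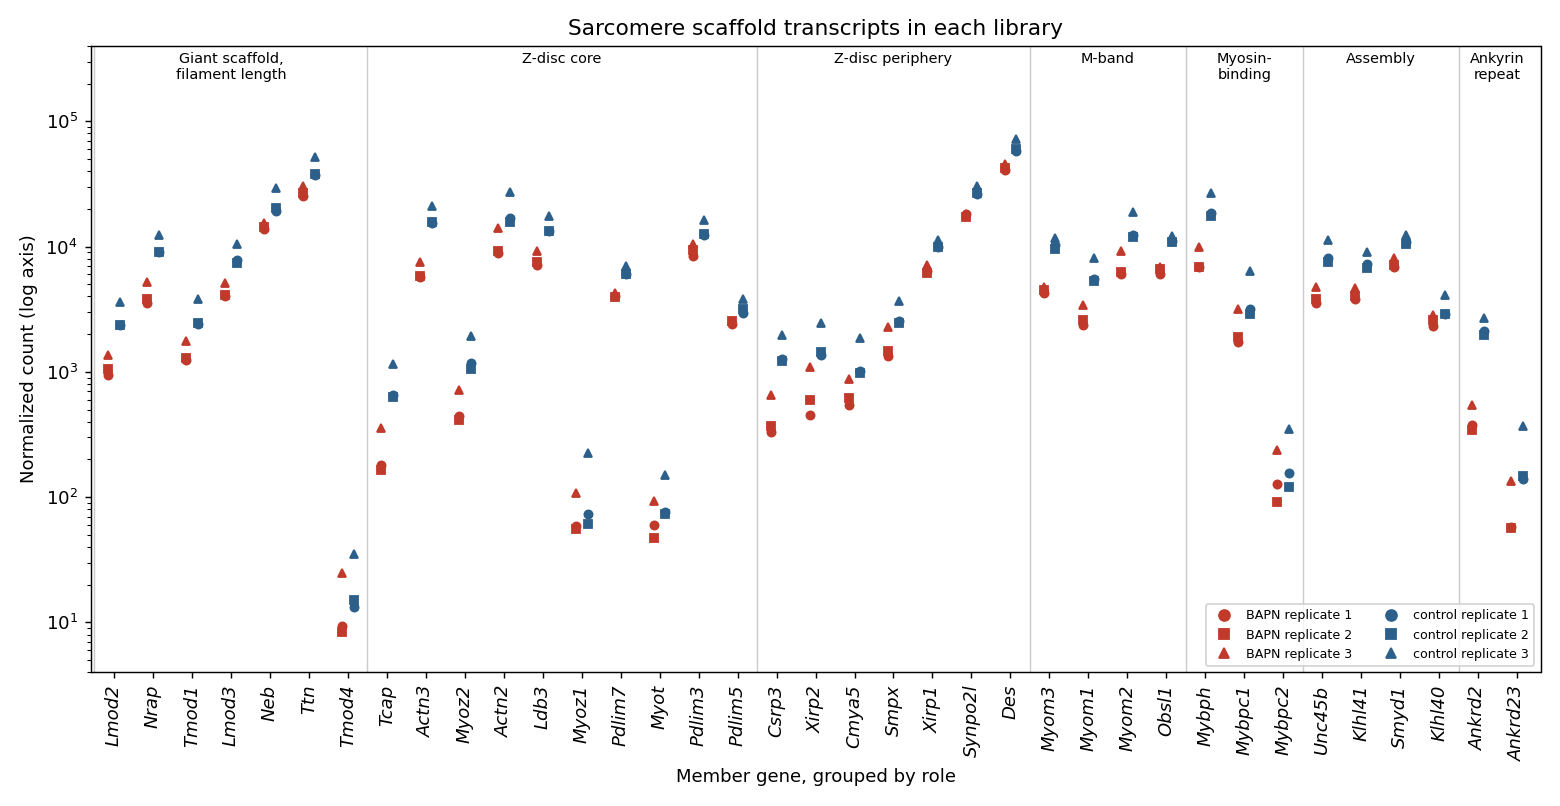
Normalized counts (log axis) of the 37 members in each of the 6 libraries, BAPN in red and control in blue, with a marker shape for each replicate number, grouped by role. Replicate 3, the triangles, is the highest in each group for all 37 genes.

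Within the families, 16 ratios of related members were compared, and 9 had no overlap between the groups. For these 9, the exact two-sided permutation test gave p = 0.1, the smallest that 3 against 3 allows, and 0.18 after Benjamini-Hochberg adjustment over the 16, so that none could pass 0.05. How often ratios of other gene pairs separate was not computed. Of single genes tested, 28.5% had every BAPN library below every control and 22.4% had every BAPN library above. Several pairs share a gene, such as Mybph, Pdlim7 or Myom1, so the 16 are not separate observations. By size, the largest shifts were those of Ankrd2 to Ankrd23 (-1.07 on the log2 scale), Mybpc2 to Mybph (0.99), Myoz1 to Myoz2 (0.90), Mybpc1 to Mybph (0.58), Actn2 to Actn3 (0.56) and Klhl40 to Klhl41 (0.53). The Xirp1 to Xirp2 difference, 0.68, lay between these but its libraries overlapped, at 13.9, 10.3 and 6.58 with BAPN and 7.34, 6.87 and 4.55 in controls. The Myoz1 to Myoz2 ratio moved from 0.0621, 0.0574 and 0.116 in controls to 0.132, 0.135 and 0.149 with BAPN, and control replicate 3 lay near the BAPN libraries.

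**Figure D4:**
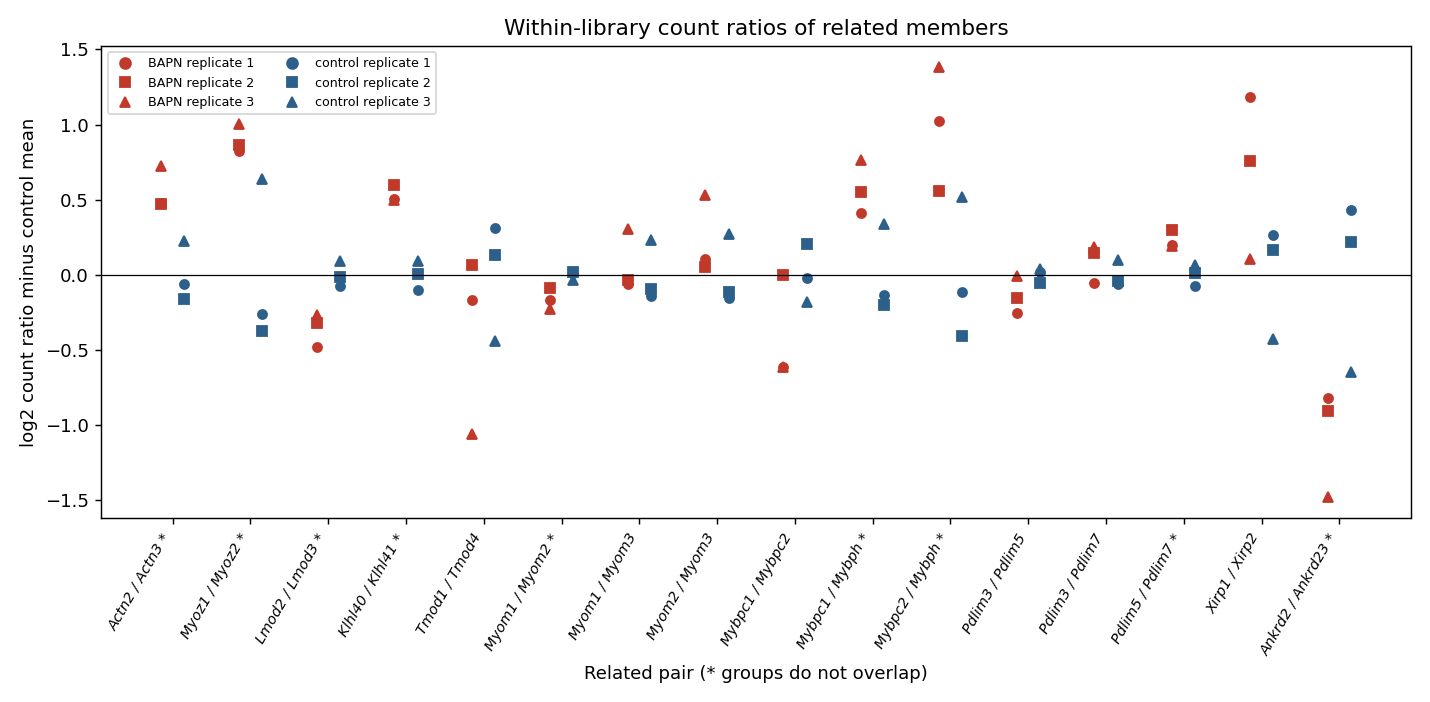
Log2 of the count ratio of 16 pairs of related members within each library, less the mean of the controls for that pair (vertical axis). Asterisks mark the 9 pairs whose BAPN (red) and control (blue) libraries do not overlap.

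Replicate 3 was the highest of the 3 libraries for all 37 members in the BAPN group and for all 37 in the control group. Among all genes tested, 42.4% had their highest BAPN value in replicate 3, 40.7% their highest control value, and 23.5% both. For the members, BAPN replicate 3 was between 1.03 and 2.80 times the mean of BAPN replicates 1 and 2, with a median of 1.39. Control replicate 3 was between 1.11 and 3.34 times the mean of control replicates 1 and 2, with a median of 1.47. The medians over all genes tested were 1.00 in both groups. The members with a large excess in one group had it in the other, among them Tmod4, Ankrd23, Mybpc2, Myoz1, Mybpc1, Tcap, Myot and Xirp2 (Spearman's rho 0.88 across the 37 genes, which share the 6 libraries). The labels do not say what a replicate number stands for, and 2 samples with a low RNA integrity number (below 7.5, against above 8.1 for most) are not identified, so their part in this was not tested. The median difference within a replicate number, BAPN over control, was -0.91, -0.78 and -1.01 for replicates 1, 2 and 3. Without both libraries of replicate 3, a choice made after seeing the data, 34 members were called lower and 0 higher, with a median of -0.83. The shares of all genes called rose as well in that fit, to 31.1% lower and 23.5% higher.

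**Figure D5:**
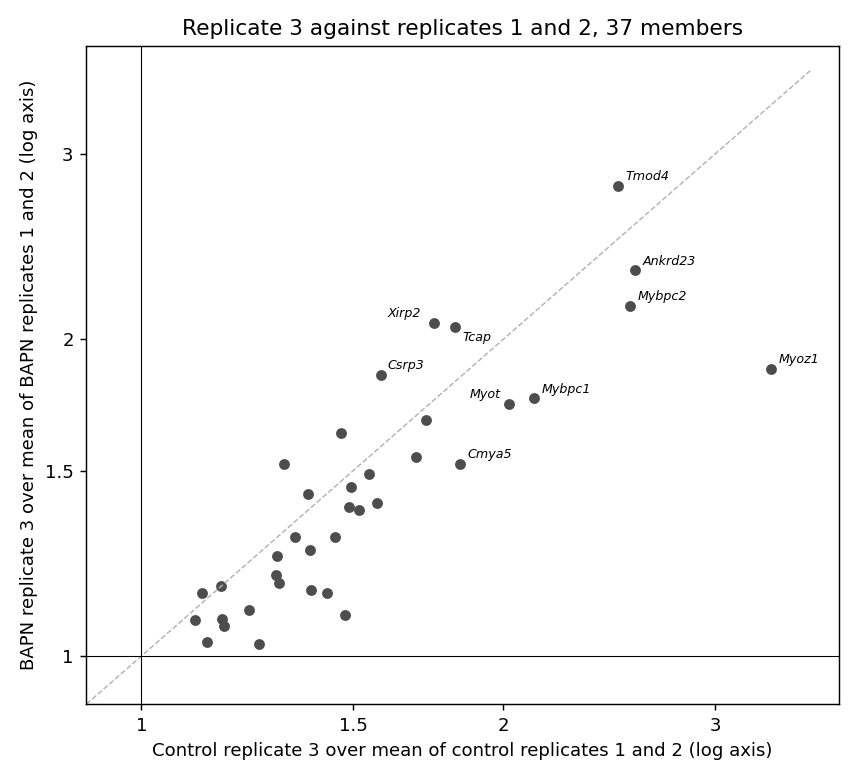
Normalized count of replicate 3 over the mean of replicates 1 and 2, in controls (horizontal, log axis) and with BAPN (vertical, log axis), 1 point per member, with equality as a dashed line. All 37 points lie above 1 on both axes.

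The log2 fold change of a member was only weakly related to its abundance and length. Across the 37 genes, Spearman's rho between the log2 fold change and the control level per kilobase of exon was -0.11, and 0.20 with exon length, values that share the same 6 libraries. In control libraries the mean normalized count per kilobase ran from 12.4 for Tmod4 to 16806.5 for Des. The members are spread over 16 chromosomes, and 2 pairs lie within 200 kb of each other, Myoz1 and Synpo2l (2405 bp apart on chromosome 14) and Des and Obsl1 (110.7 kb apart on chromosome 1).

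For 15 members the exons share bases with those of another annotated gene, and no strand setting of the counting is given in the sources used here, so reads of such genes may have been left out or shared. Ankrd23 and Pdlim7 overlap a gene of their own strand, and the overlap is with the opposite strand for Des, Mybph, Neb, Xirp2, Ttn, Tmod1, Mybpc2, Klhl40, Mybpc1, Unc45b, Cmya5, Myom1 and Nrap. The values of these 15 are uncertain to that extent. Of the other 22, 19 were called lower, against 20.8% of all genes tested. All of the 15 but Mybpc1, Mybpc2 and Klhl40 were called lower as well.

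Other scaffold and assembly genes, with relatives of the members among them, moved mostly the same way. The list takes in genes that are not confined to the sarcomere, such as Actn1, Actn4, Tmod3 and Unc45a. Of these, Actn4 fell (-0.35), and Actn1 (0.12), Tmod3 (0.24) and Unc45a (-0.11) were not called. Of 47 further scaffold and assembly genes in the table, 45 were tested, 31 fell and 3 rose, against 20.8% and 15.6% of all genes tested, with a median log2 fold change of -0.46. With replicates 1 and 2 summed 13 of them fell and 1 rose, and without both libraries of replicate 3 the number that rose was 6. These genes were chosen with results of these data known. Those that fell most were Capn3, a calpain that binds titin (-1.77, edgeR adjusted p = 0.0028), Hspb7, a small heat shock protein (-1.39, edgeR adjusted p = 0.0023), and Pdlim4, another PDZ and LIM protein (-1.29, edgeR adjusted p = 2.5e-04). Those that rose were Synm, the intermediate filament protein synemin (0.78, edgeR adjusted p = 0.0025), Mylk2, the kinase of the skeletal myosin light chain (0.67, edgeR adjusted p = 0.0064), and Csrp2, a relative of Csrp3 (0.66, edgeR adjusted p = 0.035). Of 24 actin, myosin, troponin and tropomyosin genes, 20 fell and 0 rose, with a median of -0.91, close to the median of the scaffold genes.

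Markers of the labelled cells were present. All 12 markers of satellite cells and myoblasts were tested, of which Cd34 and Cxcr4 rose and 6 fell, Myod1 and Myog among them. Pax7, which marks satellite cells, had 1429 ± 462 with BAPN against 1220.5 ± 65.8 in controls (0.23, edgeR adjusted p = 0.44). Markers of other cells moved in part with the scaffold genes. Of 12 fibroblast markers, 9 were tested and 3 fell, the collagens Col1a1, Col1a2 and Col3a1, and the summed normalized count of the list was 5365 to 6991 with BAPN and 8945 to 10134 in controls. Of 9 smooth muscle and pericyte markers, 6 were tested and 5 fell, with a summed count of 3621 to 4125 with BAPN and 6593 to 7668 in controls. Notch3, Abcc9, Cspg4, Mcam and Rgs5 fell and Pdgfrb was not called. Control means of these 6 ran from 220 for Rgs5 to 2726.5 for Notch3. Myh11, Cnn1 and Kcnj8 were under the minimum for testing, at 5.50 ± 1.57, 1.57 ± 1.07 and 1.33 ± 1.16 with BAPN. The part of these other cells in the result was not tested. Among the 5 endothelial and 3 adipocyte markers tested, the lowest edgeR adjusted p was 0.053, for Vwf. Of 4 macrophage and leukocyte markers tested, Cd68 and Cd14 rose and Itgam fell, while Ptprc, Adgre1 and Aif1 were near 0. Of 4 Schwann cell and tenocyte markers tested, Mkx rose and Scx, a tendon factor, fell, from 2819 ± 34.1 to 1781 ± 199.9.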

How the data were processed

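Reads were single, 60 nt, from 1 lane, per the labels' protocols. Cutadapt, STAR, HTSeq and DESeq2 are named with GRCm38, per the submitters' processing notes, with no version, annotation or strand setting stated there. The authors deposited raw counts per gene symbol for the 6 libraries, normalized counts (a signal, the counts divided by 1 size factor per library) and a comparison with log2 fold changes, p-values and adjusted p-values. The deposited counts of 3 BAPN and 3 control libraries were tested with edgeR 4.0.16 (quasi-likelihood, R 4.3.3), with the authors' size factors, on the 13716 genes whose normalized counts averaged 10 or more, and p-values were Benjamini-Hochberg adjusted over all of them. The script was also run on simulated counts for these genes, with the outcome not given here. Coordinates and exon lengths came from GENCODE M21 and promoter windows from RefSeq, without those on chromosome 18. The sequence of 1 further site is not reported here. The members, lists, pairs and tests were chosen with earlier results of these data known.

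Ratios of 2 members within a library were taken on the raw counts and compared on the log2 scale by an exact two-sided permutation test, and differences within a replicate number were taken on log2 of the normalized count plus 1. Values by library were given for the member of each role group with the highest level per kilobase and those with the lowest and highest log2 fold change, every member not called and every member of a pair without overlap, and Ttn and Neb were added. The alternatives were TMM and upper quartile scaling, DESeq2 1.42.0, no filter, the replicate block, replicates 1 and 2 summed and leaving out each library. Same-numbered BAPN and control libraries deviated together (r = 0.18, 0.19 and 0.37 over genes), while BAPN replicate 1 correlated with control replicate 2 at 0.23. These values set replicate 3 apart and left the matching of replicates 1 and 2 open, and the labels give no meaning for the numbers. The main test therefore used no pairing. The replicate block and the differences within a replicate number took the numbers as pairs, which is an assumption.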

Additional observations from a re-analysis of the deposited data

How the results depend on the processing

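Under TMM scaling, upper quartile scaling and DESeq2, 30 members were called lower in each (17.4%, 17.7% and 17.2% of all genes tested), 31 without the filter (15.0%), and 0 higher in any. With the replicate block 36 members were called lower, with a median log2 fold change of -0.89, and it ended no call of a member. Leaving out 1 library gave 25 to 32 members called lower (13.6% to 22.7% of all genes), a median of -1.15 to -0.74, 22 to 31 other scaffold genes called lower and 2 to 4 called higher. With replicates 1 and 2 summed the counts were 18 members lower, 13 other scaffold genes lower and 1 higher, with 5.90% of all genes lower and 5.22% higher. Without both libraries of replicate 3, 6 other scaffold genes were called higher, with 23.5% of all genes. In all, 18 members kept their call under every alternative run. They are the same 18 that were called with replicates 1 and 2 summed, a fit that called 5.90% of all genes lower. The share of all genes that kept a call under every alternative was not computed. With 1 library left out, the log2 fold change ran from -1.04 (without BAPN replicate 3) to 0.13 (without control replicate 3) for Myoz1 and from -0.92 to 0.13, without the same libraries, for Mybpc2. The difference in the log2 ratio of Myom1 to Myom3 ran from -0.051 without BAPN replicate 3 to 0.18 without control replicate 3, and was -0.0037 without control replicate 1. The cause was not tested, other than that summed or left-out libraries leave fewer samples. The largest standard errors were those of Tmod4, Myoz1, Ankrd23, Mybpc2 and Myot, which had low counts and replicate 3 well above the other libraries in both groups. All of these but Tmod4 were called lower with the replicate block, a fit in which 27.0% of all genes tested were called lower and 20.3% higher.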
